A study of Mus musculus with 10 samples.

Results

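Endothelial cells with detected Prox1, the marker set of lymphatic endothelium, were examined in single-cell RNA sequencing of mouse embryonic back skin. A cell was taken when it had at least 1 unique molecular identifier (UMI) of Prox1, when at least 2 of the 5 endothelial genes Pecam1, Cdh5, Flt4, Lyve1 and Tie1 were detected, and when it had under 3 UMIs of C1qa and C1qb together and under 10 of Krt5 and Krt14 together. The cells were thus chosen by their own UMI counts of these 10 genes, whose levels are description only. These limits found 138 cells among 55482 kept cells, and 647 further cells met the endothelial limits with Prox1 at 0. The study asked what loss of the acetyltransferase MOF (gene symbol Kat8) or of the respiratory complex III subunit QPC (gene symbol Uqcrq) does to developing skin. Embryos of stages E15.5 and E16.5 each gave 2 control libraries and 2 libraries of genotype MOFfl/fl/K14Cre (MOF cKO), while stage E17.5 had 1 control library and 1 of genotype QPCfl/fl/K14Cre (QPC cKO). The K14Cre driver acts in epithelial cells, so by design the floxed alleles were not targeted in endothelium. The labels give no genotype for the controls beyond that name. The study describes the embryo of E15.5 MOF cKO replicate 6 as a mosaic knockout. The labels name another version of the same 3′ droplet kit for each stage, so that stage and kit cannot be told apart.

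Lymphatic endothelial cells line the vessels that return tissue fluid and leukocytes to the blood. They arise mainly from veins, where the transcription factors Sox18 and Nr2f2 switch on Prox1, a homeobox factor that sets and maintains lymphatic identity. They then migrate along the growth factor Vegfc through its receptor Flt4 and the co-receptor Nrp2. In skin they form blind-ended capillaries rich in Lyve1 and in the chemokine Ccl21a, which guides dendritic cells into the vessel, and later collecting vessels with valves.

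The libraries held from 13609345 to 203392303 UMIs and from 716 to 10653 kept cells, with the fewest cells at E16.5. Any pair of libraries shared at most 36 cell barcodes. E16.5 control replicate 2 and both E17.5 libraries carried the Y-linked Ddx3y and no Xist, whereas the other 7 had Xist and no Ddx3y. The study describes the E15.5 libraries as coming from 2 pairs of embryos, those of E16.5 as 2 pairs of samples, and its controls as littermates. P-values of comparisons between genotypes measure the spread between these libraries. Where populations of the same library were compared, they measure the spread of the within-library difference across libraries.

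The label of lymphatic endothelium held for the smaller share of these cells. Ccl21a, which the rule did not use, divided them into 50 cells with 14 to 475 UMIs (median 119), 86 cells at 0 and 2 cells at 1, with no cell between 1 and 14. The 50 cells are called Ccl21a-high and the other 88 Ccl21a-low below. This division was chosen after the values were seen, so its groups are described and not tested. Ccl21a was read by its gene identifier, and near-identical copies of the gene exist in the mouse, so that its UMIs may be shared among them.

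Ccl21a-high cells carried the markers of lymphatic capillaries together. Lyve1, the hyaluronan receptor, was detected in all 50 (median 30 UMIs), and Lyve1, Mmrn1 and Reln were found together in 49 of 50. Mmrn1 encodes the secreted multimerin and Reln the secreted glycoprotein reelin. Flt4 was detected in 49, Nrp2 in 49, Nr2f2 in 49, Sox18 in 40 and Pdpn, the membrane glycoprotein podoplanin, in 37. The blood vessel genes Aplnr and Esm1 were at 0 in all 50 cells, Flt1 was detected in 2 and Cd34 in 4. Kdr, a VEGF receptor of both vessel types, was detected in all 50, Emcn in 39 and Plvap in 29. The scavenger receptor Stab1 was detected in all 50 and Mrc1 in 25, both of which are also used as macrophage markers.

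Nearly all Ccl21a-low cells had the profile of blood endothelium. At least 5 of the 8 blood endothelial markers Emcn, Plvap, Flt1, Kdr, Cd34, Aplnr, Esm1 and Sox17 were detected in 85 of 88 Ccl21a-low cells and in 2 of 50 Ccl21a-high cells. Flt1 was detected in 82, Cd34 in 86, Aplnr in 78 and the arterial factor Sox17 in 77. Lyve1 was detected in 2 of the 88, Reln in 2 and Pdpn in 1, and no cell had Lyve1, Mmrn1 and Reln together (0 of 88, with a 95% Wilson interval up to 4.18%). Flt4 was detected in 41 of them, with at most 4 UMIs in a cell, and Mmrn1 in 28.

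Prox1 itself differed in level as well as in company. It had a median of 7 UMIs (1 to 23) in Ccl21a-high cells and was at 1 UMI in 3 of them. In Ccl21a-low cells it was at 1 UMI in 73 of 88 and at 1 or 2 in 84. The Ccl21a-low cells were the deeper ones, with a median of 22544 UMIs (7221 to 49113) against 15360 (5814 to 38828). Of cells with at least 2 Prox1 UMIs, 47 of 62 were Ccl21a-high, and of those with at least 3, 46 of 50. A single Ccl21a-low cell of E15.5 MOF cKO replicate 6 had 24 Prox1 UMIs, the most of any member. It had Pecam1 at 3 UMIs, Cdh5 at 5 and Sox18 at 5, with Flt4, Lyve1, Emcn and Cd34 at 0. It also had Foxc2 at 4 UMIs, Gata2 at 11, Cldn11 at 10 and Gja4 at 3, genes of the valve and collector list or of lymphatic fate, and was the only 1 of the 88 Ccl21a-low cells with Foxc2 or with Cldn11.

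**Figure D1:**
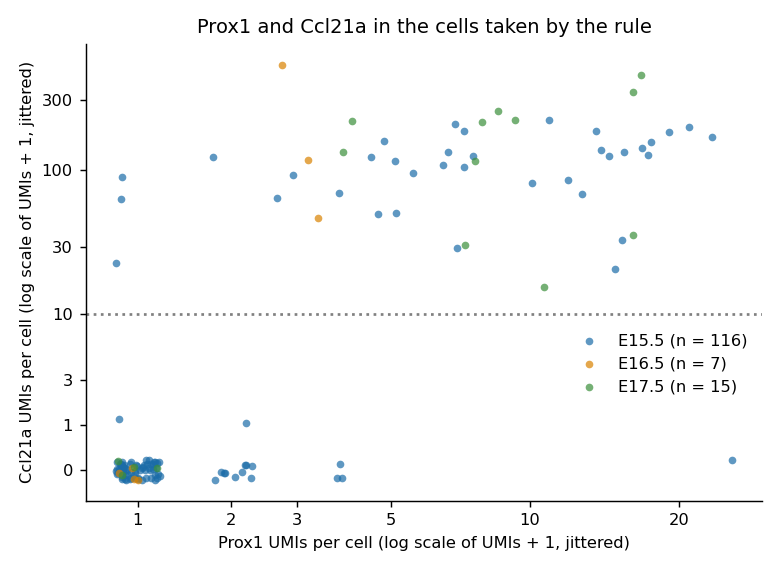
Prox1 UMIs (x axis) and Ccl21a UMIs (y axis) in each of the 138 Prox1-detected endothelial cells, on log scales of UMIs plus 1 with points jittered, coloured by stage, and a dotted line at 10 Ccl21a UMIs. The 50 Ccl21a-high cells lie at 14 to 475 Ccl21a UMIs with mostly several Prox1 UMIs, and the 88 Ccl21a-low cells lie at 0 or 1 Ccl21a UMI, 73 of them at 1 Prox1 UMI.

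The share of Ccl21a-low endothelial cells with a Prox1 UMI was set beside that in cell types that should lack the gene. At E15.5, 80 of 561 such cells had Prox1 (14.3%, 95% Wilson interval 11.6 to 17.4%, and 12.9 to 14.9% in single libraries). The share was 1.75% in fibroblasts, 1.86% in keratinocytes, 5.06% in macrophages and 3.43% in mural cells, where the last 3 cell classes were defined after the data were seen. Median depth was 16720 to 21508 UMIs per library in the endothelial cells and 11454 to 13772 in fibroblasts. With every cell thinned to 4000 UMIs the share was 4.55% (3.1 to 6.64%) in the endothelial cells, 0.583% (0.482 to 0.706%) in fibroblasts and 0.942% (0.512 to 1.72%) in mural cells. As Prox1 chose the members, these shares are a description. Of the 80 cells, 15 had 2 or more Prox1 UMIs. At E16.5 the share was 4.08% (1.6 to 10%) in Ccl21a-low endothelial cells and 0.431% (0.234 to 0.791%) in fibroblasts, and 1.02% (0.18 to 5.56%) against 0.175% (0.0681 to 0.449%) after thinning, where the intervals overlapped. At E17.5 it was 5.33% (2.09 to 12.9%) against 1.89% (1.56 to 2.29%), and 0 of 73 after thinning, with a Wilson interval up to 5%. Macrophages were at 7.8% (4.41 to 13.4%) and mural cells at 3.63% at E17.5, and thinned macrophages at 1.47% at E16.5, so the endothelial share did not stand above all classes at these stages. Intervals here and below cover counting error only.

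The limits of the rule fell close to many cells. Prox1 was at 1 UMI in 76 of the 138 members and at 2 or more in 62, and 6 members had exactly 2 of the 5 endothelial genes. Of 1870 kept cells with Prox1, 1303 failed only by having none of the 5 endothelial genes and 50 only by having 1, while, of those with at least 2 of the genes, 6 were left out by C1qa and C1qb and 6 more by Krt5 and Krt14. The remaining Prox1-detected cells failed both the endothelial limit and another. In all kept cells, 56 had at least 10 Ccl21a UMIs, and 6 of these lay outside the rule. The keratin limit left out 4 of the 6, all in the E17.5 control, which had 5 Ccl21a-high members.

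Other cells' RNA was present in some members. Col1a1, the fibroblast collagen, passed 50 UMIs in 4 of 50 Ccl21a-high and in 4 of 88 Ccl21a-low cells. Summed over the 10 fibroblast markers, members held 148 and 1890 counts per 1000000 UMIs (CPM) in the E15.5 controls and 1554 to 1917 in MOF cKO. The 12 macrophage markers summed to 46.3 to 68.5 CPM and 42.3 to 183, and the 10 mural markers to 6.42 to 121 and 28.5 to 37. The 10 keratinocyte markers summed to 126 to 139 CPM in controls and 37.2 to 81 in MOF cKO. The rule capped Krt5 and Krt14, which are among these 10, and it also capped C1qa and C1qb. The keratinocyte and macrophage sums were thus limited by the choice of cells. No doublet caller was run. Without cells with UMIs of other types, edgeR called 3 genes for MOF cKO in place of 0, 309 in place of 278 between members and Prox1-undetected cells, and 1 in place of 5 for the difference of effects.

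Next, the number of cells was compared between genotypes. At E15.5 there were 26 and 21 members in the 2 control libraries and 49 and 20 in MOF cKO replicates 5 and 6. As a share of kept cells this was 0.31% (95% Wilson interval 0.211 to 0.453%) and 0.23% (0.151 to 0.352%) in controls, and 0.481% (0.364 to 0.636%) and 0.188% (0.122 to 0.29%) in MOF cKO. The highest and the lowest share were both in MOF cKO, on either side of the controls. The means were 0.27% ± 0.0561 (SD, n = 2) and 0.335% ± 0.208 (SD, n = 2), which did not differ beyond the spread (exact permutation test, two-sided, p = 1). With 2 libraries against 2 the smallest p that can be reached is 0.333.

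Among all cells that met the endothelial limits, members made up 21.8% and 20% in the E15.5 controls and 20.6% and 14.8% in MOF cKO. The means of 20.9% ± 1.31 and 17.7% ± 4.08 (SD, n = 2 each) gave p = 0.667 in the exact permutation test. Ccl21a-high cells alone numbered 10 and 7 in controls and 16 and 3 in MOF cKO, that is 0.0979% ± 0.0299 and 0.0927% ± 0.0912 of kept cells (SD, n = 2 each). The 3 Ccl21a-high cells of MOF cKO replicate 6 were the smallest number of any E15.5 library.

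At E16.5 the counts were 1 and 3 in controls and 1 and 2 in MOF cKO, of which 2 control cells and 1 MOF cKO cell were Ccl21a-high. The shares of kept cells were 0.105% ± 0.0247 and 0.143% ± 0.005 (SD, n = 2 each, exact permutation p = 0.333, the smallest possible). The intervals of all 4 libraries overlapped, from 0.0155% at the lowest bound to 0.787% at the highest, so a difference was not detectable at this depth. At E17.5 there were 7 members in the control and 8 in QPC cKO, of which 5 and 6 were Ccl21a-high. Both shares were 0.131% of kept cells, with intervals of 0.0634 to 0.27% and 0.0663 to 0.258%. The keratin limit left out 5 otherwise qualifying cells in the control and 0 in QPC cKO, so the equal shares depended on that limit. Of all kept cells, 9 in the control and 7 in QPC cKO had at least 10 Ccl21a UMIs. The order of the Ccl21a-high share depended on the denominator, at 0.0934% in the control and 0.0981% in QPC cKO of all kept cells, and 0.219% and 0.121% of kept cells with under 10 UMIs of Krt5 and Krt14.

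**Figure D2:**
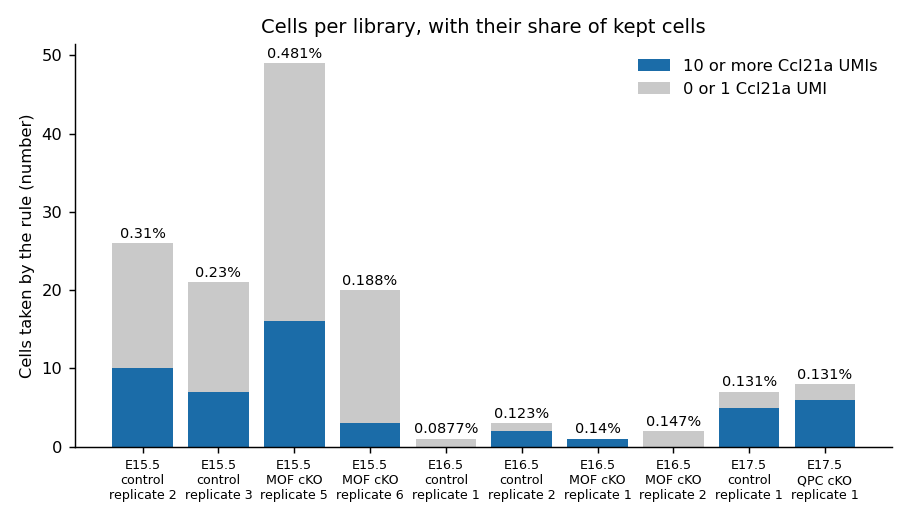
Number of Prox1-detected endothelial cells in each of the 10 libraries, stacked by Ccl21a-high (10 or more UMIs) and Ccl21a-low cells, with their percentage of kept cells printed above each bar. At E15.5 the 2 MOF cKO percentages lie above and below the 2 controls, and at E16.5 each bar rests on 1 to 3 cells.

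The targeted genes were then read in the members. Kat8 had 5 and 6 UMIs in members of the E15.5 control libraries (11 and 12.8 CPM) and 5 and 2 in MOF cKO (4.32 and 4.63 CPM). In Prox1-undetected endothelial cells it was at 12 and 12.1 CPM in controls against 4.27 and 2.94 in MOF cKO, in fibroblasts at 9.35 and 9.79 against 7.22 and 6.26, and in keratinocytes, the targeted cells, at 13 and 14.1 against 13.4 and 10.1. Kat8 was thus lower in MOF cKO, with counting intervals apart, in Prox1-undetected cells and fibroblasts, which the driver is not meant to target. In members the intervals overlapped, and in keratinocytes MOF cKO replicate 5 lay between the controls. The reason was not tested. The 3′ tags may lie outside the deleted part of the gene, which was not examined, so Kat8 does not check the labels here. At E17.5 Uqcrq was at 181 CPM in control and 182 CPM in QPC cKO members, at 123 and 29.8 CPM in keratinocytes, and at 65.7 and 120 CPM in fibroblasts. Uqcrq was thus lower in QPC cKO in keratinocytes, higher in fibroblasts and at nearly equal levels in the Prox1-detected endothelial cells, each from 1 library per group.

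To find what sets these cells apart from other endothelium, UMIs were summed per library and population at E15.5, and members were compared with Prox1-undetected endothelial cells of the same library. The edgeR quasi-likelihood test called 182 genes higher and 96 lower of 9430 tested (278 in all, 2.95%) with an adjusted p (Benjamini-Hochberg) below 0.05. The 10 genes of the rule were left out. Because most members were Ccl21a-low cells, which carried blood endothelial markers as the comparison cells did, the differences below are averages over both kinds. Ccl21a-low and Prox1-undetected cells were not alike in all genes. Top2a was at 107 and 130 CPM in Ccl21a-low cells of controls against 266 and 247, and at 351 and 257 in MOF cKO against 271 and 363. Hbb-bt was at 183 and 288 CPM in Ccl21a-low cells of controls against 1972 and 2484. Among members with at least 2 Prox1 UMIs, mostly Ccl21a-high, the same test called 780 genes.

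The largest rises were in Ccl21a, Reln, Tc2n, Fgl2 and Fibin. Ccl21a stood at 2099 and 1899 CPM in members of the control libraries and at 1739 and 706 in MOF cKO, against 0 to 2.1 CPM in Prox1-undetected cells (log2 difference 11.42 ± 0.26, adjusted p = 1.18e-16 in edgeR). Reln was at 132 and 131 CPM in control members and at 58.8 and 67.1 in MOF cKO, against 3 UMIs over all Prox1-undetected cells, a ratio of 280 (95% counting interval 94.7 to 1370). Fgl2, a secreted fibrinogen-like protein, was at 174, 152, 124 and 99.6 CPM in the 4 libraries against at most 2.26 (7.48 ± 0.32, adjusted p = 3.6e-12 in edgeR). Members of every library lay above every Prox1-undetected sum for these genes, as for 3.85% of all genes, and below it for 2.43%.

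Tc2n, a protein with C2 domains, was at 39.4 to 83.7 CPM in members against at most 1 CPM (log2 difference 7.74 ± 0.43, adjusted p = 8.49e-10 in edgeR). Fibin, a secreted protein, was at 148 and 60 CPM in control members, at 25.1 and 16.2 in MOF cKO, and at 0 to 4.2 in the comparison cells (6.66 ± 0.50, adjusted p = 4.92e-08 in edgeR). Among called genes whose groups did not overlap and that reached a mean of 50 CPM, the largest falls were small. Larger falls outside these limits, as of Vegfc, are given below. The taurine transporter Slc6a6 fell by 0.86 ± 0.18 on the log2 scale (edgeR adjusted p = 0.00946), the homeobox gene Hlx by 0.77 ± 0.17, the glucose transporter Slc2a1 by 0.73 ± 0.15, Pdlim5 by 0.71 ± 0.15 and Gadd45g by 0.69 ± 0.15. All 5 lost their call without control replicate 2 and under DESeq2.

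Transcription factors of lymphatic fate were higher in part. Of 14 tested, 6 rose and none fell, against 1.93% of all genes rising and 1.02% falling, with a median log2 difference of 0.68 against -0.02 over all genes. Maf, a factor of lymphatic maturation, was at 101, 79.2, 73.4 and 64.8 CPM in members against 11.5 to 16.3 CPM (2.51 ± 0.19, adjusted p = 2.22e-08 in edgeR). Nr2f2, the venous factor upstream of Prox1, was at 122 to 169 CPM against 81.6 to 111 (0.67 ± 0.11), and Nfatc1, a valve and lymphatic factor, rose by 1.31 ± 0.17. Foxc2, which directs valve formation, had 24 UMIs in members and 3 in the comparison cells, a ratio of 30.9 (9.37 to 160). Tal1 and Klf4 also rose, by 0.92 ± 0.23 and 0.70 ± 0.12. Sox18 stood at 203, 141, 130 and 164 CPM against 111, 136, 144 and 174 (0.15 ± 0.12, adjusted p = 0.69 in edgeR), with the groups overlapping.

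Of the 10 tested genes of Vegfc signalling, 2 rose and 1 fell, against 1.93% and 1.02% of all genes, with a median of 0.01. The co-receptor Nrp2 was at 335, 345, 403 and 248 CPM in members against 160 to 209 (0.90 ± 0.09, adjusted p = 3.17e-06 in edgeR), and the integrin Itga9, a receptor for Vegfc and fibronectin, rose by 1.10 ± 0.21. Vegfc itself was at 2.14 to 3.46 CPM in members against 9.29 to 21.7 (-2.38 ± 0.48, adjusted p = 0.00686 in edgeR), on 7 UMIs over all members. Kdr did not differ detectably (0.01 ± 0.08), nor did Nrp1 pass the threshold (-0.33 ± 0.11, adjusted p = 0.133 in edgeR).

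Genes of lymphatic capillaries had the highest median of the 4 lymphatic lists. Of 15 tested, 10 rose and 1 fell, against 1.93% and 1.02% of all genes, with a median of 1.53. Mmrn1 was at 282, 388, 293 and 190 CPM in members against 10.8 to 26.6 (4.02 ± 0.13, adjusted p = 7.1e-14 in edgeR). Pdpn rose by 4.87 ± 0.52, the neuropeptide precursor Nts by 5.23 ± 0.49, Thy1, an adhesion protein bound by leukocytes, by 2.24 ± 0.24 and Stab1 by 1.53 ± 0.14. The water channel Aqp1 fell by 0.58 ± 0.14, and Cd9, Fabp4, Gng11 and Timp3 did not pass the threshold. This list was written with earlier results of these data known, so its count is not independent evidence of its direction.

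Of 17 genes of valves and collecting vessels, 4 rose and none fell, against 1.93% and 1.02% of all genes. Besides Foxc2 and Itga9 these were the gap junction gene Gja1 (0.74 ± 0.11) and the matrix gene Fn1 (0.85 ± 0.14). Of the 6 tested angiopoietin and Tie genes, Angpt2 rose by 1.45 ± 0.33 and Apold1 by 0.62 ± 0.09. The macrophage and lymphatic receptor Mrc1 was at 8.81 to 40.7 CPM in members and had 3 UMIs in the comparison cells (ratio 51.4, 16.4 to 260), while the other 4 macrophage markers tested did not pass. Of the 12 p53 target genes listed, Gdf15 alone of 10 tested rose (3.28 ± 0.66).

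Blood endothelial genes were lower, by small amounts. Of 24 tested, 7 fell and none rose, against 1.02% and 1.93% of all genes, with a median of -0.39. Emcn was at 394, 340, 390 and 417 CPM in members against 470 to 598 (-0.42 ± 0.08, adjusted p = 0.00566 in edgeR). Plvap fell by 0.58 ± 0.09, Flt1 by 0.51 ± 0.10, Cd34 by 0.52 ± 0.09, Aplnr by 0.54 ± 0.13 and Ly6c1 by 0.59 ± 0.14. The arterial connexin Gja5 was at 0 in members of 3 libraries and at 4.32 CPM in the fourth, against 5.88 to 22.9 CPM. The junction genes Esam and Icam2 fell by 0.43 ± 0.10 and 0.32 ± 0.08.

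**Figure D3:**
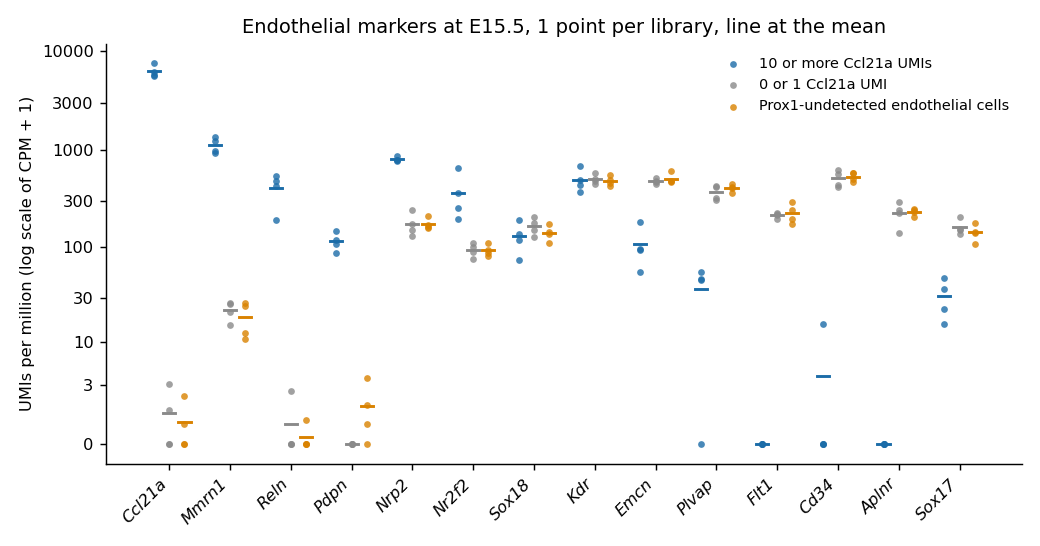
CPM (plus 1, log axis) of marker genes per E15.5 library in Ccl21a-high, Ccl21a-low and Prox1-undetected endothelial cells, with 1 point per library and a line at the mean. Ccl21a, Mmrn1 and Reln are high in Ccl21a-high cells alone, and Ccl21a-low cells lie with the Prox1-undetected cells.

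Of 17 genes of G2 and M phase 4 fell (Top2a, Cdk1, Ube2c and Aurkb), as did 3 of 18 S phase genes (Mcm7, Rrm2 and Tyms), and none rose. Over all genes 1.02% fell and 1.93% rose. The groups overlapped for all 17 G2 and M genes. The summed G2 and M level of members lay below that of Prox1-undetected cells in the control libraries (914 to 980 against 1725 to 1828 CPM), and in MOF cKO the ranges overlapped (1602 to 2243 against 1702 to 2243 CPM). Of 6 erythroid genes tested 4 fell, with the groups overlapping for all 6. Hbb-bt was at 200 and 291 CPM in control members against 1972 and 2484 in Prox1-undetected cells. In MOF cKO it was at 6967 against 3444 in replicate 5, the opposite order, and at 1709 against 3925 in replicate 6. None of 10 Notch, 4 adrenomedullin receptor, 13 interferon response, 13 immediate early, 10 heat shock and 9 complex III genes was called by edgeR in this comparison.

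Effects of MOF loss within the Prox1-detected endothelial cells were tested on the 4 library sums of E15.5. The edgeR quasi-likelihood test called 0 of 5730 genes (0%), with 400 genes at an unadjusted p under 0.05, and DESeq2 called 4. Counts were also simulated at the depth of these libraries, with a fixed spread for all genes that was not estimated from them. On these the test recovered 0% of genes changed 2-fold, 49.7% of those changed 4-fold and 99.4% of those changed 8-fold. The rates describe that setting and not the power of the test on the real sums. The 5 genes of smallest p were the globin genes Hbb-bt, Hbb-bs and Hba-a1 and the mitotic genes Top2a and Bub3.

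Genes of G2 and M phase stood higher in the MOF cKO sums, though none passed the threshold. All 16 tested had positive log2 differences, with a median of 1.14 against 0.00 over all genes. In 15 of 16 both MOF cKO libraries lay above both controls, as in 14% of all genes, and Kif11 was the exception. Top2a, a DNA topoisomerase of dividing cells, stood at 110 and 105 CPM in controls and at 366 and 232 in MOF cKO (1.57 ± 0.25, adjusted p = 0.0805 in edgeR). Ube2c, a subunit of the mitotic ubiquitin machinery, was at 117 and 79.2 CPM against 318 and 218 (1.55 ± 0.26, adjusted p = 0.0805 in edgeR). Bub3, a spindle checkpoint protein outside the list, was at 61.7 and 68.5 CPM against 171 and 139 (1.34 ± 0.22, adjusted p = 0.0805 in edgeR), and Mki67, the proliferation antigen, at 108 and 122 against 211 and 139. The S phase list did not share this direction. Of its 14 genes tested, 8 had positive and 6 negative differences (median 0.08). Both MOF cKO libraries lay above both controls for 2 of them and below for 2, against 14% and 23.1% of all genes.

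Summed over the G2 and M list, Prox1-undetected cells held 1725 to 1828 CPM in controls and 1702 to 2243 in MOF cKO, and members held 914 to 980 CPM in controls and 1602 to 2243 in MOF cKO. The control members were thus the low group of the 4. The difference between the 2 effects was positive for 17 of 17 genes (median 1.08), and for 9 of 18 S phase genes (median 0.01). None of the 17 was called in the test of that difference by edgeR. In Ccl21a-low cells the summed level was 883 to 1087 CPM in controls and 1673 to 1942 in MOF cKO, without overlap. In Ccl21a-high cells it was 527 to 1233 CPM in controls and 1109 to 2942 in MOF cKO, and the groups overlapped.

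Markers of other cells moved in the same sums. All 7 fibroblast markers tested (median 0.73) and all 4 erythroid markers (median 3.65) had positive MOF cKO differences, none called by edgeR. Both MOF cKO libraries lay above both controls for 1 of the 7 fibroblast and 4 of the 4 erythroid markers, against 14% of all genes. In MOF cKO replicate 5, 10 of 49 members had over 50 Col1a1 UMIs or at least 100 Hbb-bt UMIs, and these held 1220 of its 2596 G2 and M UMIs (47%). Without such members, a limit set after the data were seen, the summed G2 and M level was 990 and 914 CPM in controls and 1646 and 1671 in MOF cKO.

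**Figure D4:**
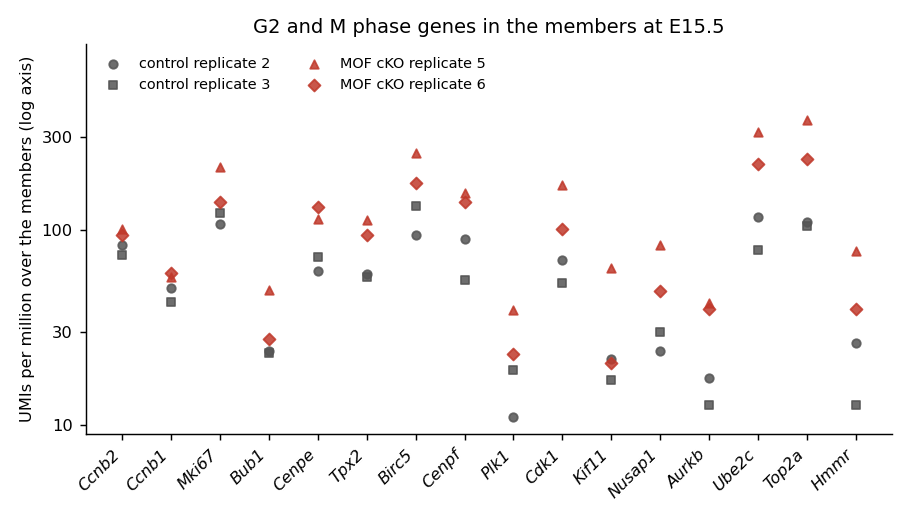
CPM (log axis) of the tested G2 and M phase genes in Prox1-detected endothelial cells of the 4 E15.5 libraries, 1 point per library. Both MOF cKO points lie above both control points for 15 of 16 genes, and no gene passed the adjusted threshold.

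Counted by cell, the share with at least 2 UMIs over the G2 and M list after thinning to 4000 UMIs was 6 of 26 and 9 of 21 in controls (23.1% and 42.9%) and 27 of 49 and 10 of 20 in MOF cKO (55.1% and 50%). The means were 33% ± 14 and 52.6% ± 3.61 (SD, n = 2 each), a difference of 19.6 percentage points, with exact permutation p = 0.333, the smallest that 2 against 2 allows. In Ccl21a-low cells the shares were 25% and 42.9% in controls and 54.5% and 52.9% in MOF cKO, and in Ccl21a-high cells 20% and 42.9% against 56.2% and 33.3%, the last from 3 cells. Among Prox1-undetected cells the means were 54.4% and 51.7%. Without thinning, the shares were 73.6% and 86.8%. At E16.5 the share was 1 of 1 and 1 of 3 in controls and 0 of 1 and 0 of 2 in MOF cKO. The only member of E16.5 control replicate 1 had 7221 UMIs, with Pecam1 and Lyve1 at 1 UMI and Cdh5, Flt4 and Tie1 at 0.

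The globin genes rested on few cells. Hbb-bt, an adult beta globin, stood at 200 and 291 CPM in control members and at 6967 and 1709 in MOF cKO (4.22 ± 0.55, adjusted p = 0.0637 in edgeR). One cell held 705 of the 738 Hbb-bt UMIs of MOF cKO replicate 6, and Ccl21a-low cells held 7999 of the 8063 of replicate 5. Summed over the 8 erythroid markers, Ccl21a-high cells had 1774 to 2637 CPM in controls and 665 to 1090 in MOF cKO, so the order was the opposite in them. With at least 2 Prox1 UMIs required, the log2 difference of Hbb-bt was -0.51. The globin genes are close copies of each other, so the division of UMIs among them is uncertain.

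Of 15 capillary genes tested, leaving out Lyve1 as a gene of the rule, 6 had both MOF cKO libraries below both controls, against 23.1% of all genes, with a median of -0.32, and none was called by edgeR. The other lymphatic lists lay closer to 0. Lower in both MOF cKO libraries were 3 of 11 fate factors (median -0.13), 3 of 14 valve and collector genes (median -0.05) and 1 of 6 genes of Vegfc signalling. Of the capillary genes Reln had the largest difference, at 58.8 and 67.1 CPM in MOF cKO, against 132 and 131 in controls (-1.02 ± 0.20, adjusted p = 0.154 in edgeR). Ccl21a was at 2099 and 1899 CPM against 1739 and 706 (-0.62 ± 0.32), Lyve1, a gene of the rule, at 507 and 486 against 423 and 282, and Stab1 at 137 and 131 against 89 and 74.1. In these sums the share of Ccl21a-high cells moved as well, from 38.5% and 33.3% of members in controls to 32.7% and 15% in MOF cKO. Within Ccl21a-high cells alone Ccl21a stood at 7582 and 6148 CPM in controls and at 5770 and 5636 in MOF cKO, but Reln at 477 and 423 against 189 and 536 and Mmrn1 at 963 and 1221 against 912 and 1330, with overlap. The last of these values in each series comes from 3 cells.

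Of 12 immediate early genes tested, 9 had both MOF cKO libraries below both controls and 1 had them above, against 23.1% and 14% of all genes, with a median of -0.45, and none was called by edgeR. The 1 above was Ier3, at 119 and 124 CPM in controls and 202 and 151 in MOF cKO. Fos stood at 1687 and 1925 CPM in controls and at 1055 and 1260 in MOF cKO, and Jun at 1355 and 1396 against 872 and 933. Klf4, a factor induced by flow, was at 251 and 274 CPM against 136 and 132 (-0.90 ± 0.18, adjusted p = 0.154 in edgeR) and Klf2 at 910 and 1180 against 678 and 697. Of the 9 complex III subunits, 6 had positive and 3 negative differences (median 0.14). The 18 blood endothelial, 7 interferon response and 8 heat shock genes tested had medians of -0.10, 0.01 and 0.14, and none was called by edgeR. Of 6 chemokine and leukocyte traffic genes tested, 4 had positive and 2 negative differences (median 0.67), also none called. Among these Ccl2, under the 50 CPM limit for named genes, had 0 UMIs in both controls and 32 and 16 in MOF cKO. Its difference was 7.31 ± 1.16 (adjusted p = 0.0805 in edgeR).

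The MOF cKO effect differed between members and Prox1-undetected cells for 5 genes of 9430 (0.053%), all with the larger difference in members. These were the linker histone gene Hist1h1b (log2 difference of effects 2.52 ± 0.33, adjusted p = 0.00241 in edgeR), Hbb-bt, Hbb-bs, Hba-a1 and the mast cell chymase gene Cma1. Hist1h1b, made in S phase, stood at 37.4 and 45 CPM in control members and at 267 and 104 in MOF cKO, against 222 and 179 and then 181 and 145 in Prox1-undetected cells. The control values came from 17 UMIs in 4 cells and from 21 UMIs in 3 cells, with 18 of the 21 in 1 cell. In Ccl21a-high cells it was at 47.7 and 0 CPM in controls and at 284 and 0 in MOF cKO, with overlap. In Ccl21a-low cells it was at 33.5 and 65 CPM against 260 and 119. Cma1 had 535 UMIs in members of MOF cKO replicate 6, of which 278 were in 1 Ccl21a-low cell, and 87 of its 97 UMIs in replicate 5 were in 1 Ccl21a-low cell. None of the 5 calls was kept without control replicate 2, and 1 was kept with at least 2 Prox1 UMIs, where the differences of the 3 globin genes were negative.

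At E17.5 the QPC cKO and control members were compared without a test, since there was 1 library per group with 8 and 7 cells. Of 989 genes that reached 30 UMIs in 1 of the 2 libraries or in both, 40 were at least 2-fold higher in QPC cKO (4.04%) and 51 at least 2-fold lower (5.16%), 9.2% in all. Ccl21a stood at 3989 CPM in the control (95% Poisson interval 3690 to 4304) and at 9065 in QPC cKO (8578 to 9572). In the control 1 cell held 288 of its 662 UMIs, and in QPC cKO 1 cell held 457 of 1297. Single Ccl21a-high cells had 14 to 288 UMIs in the control and 33 to 457 in QPC cKO, with overlap. In Ccl21a-high cells alone it was at 6108 and 12012 CPM. Of 13 capillary genes with enough UMIs, Lyve1 left out, 4 were at least 2-fold higher and none lower (median log2 ratio 0.28): Ccl21a (1.18), Reln (1.02), Aqp1 (1.65) and Clca3a1 (1.40). Of 6 valve and collector genes, 3 were at least 2-fold higher: Fn1 (1.07), the tight junction gene Cldn11 (1.86) and the connexin gene Gja4 (1.11). A single QPC cKO cell held 23 of the 38 Cldn11 UMIs.

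The largest rises at E17.5 were in Ube2c, Cd36, Fibin, Tmem158 and Cldn11. Ube2c had 1 UMI in the control and 40 in QPC cKO, a ratio of 46.4 (95% counting interval 7.86 to 1878), with 20 of the 40 in 1 cell. Fibin had 12 UMIs in 5 of 7 control members and 57 in 6 of 8 QPC cKO members. Tmem158 had 50 of its 67 QPC cKO UMIs in 1 cell. Cd36, the fatty acid transporter, had 46 of its 56 QPC cKO UMIs in 1 Ccl21a-low cell, and its log2 ratio of 2.83 became 0.67 in members with at least 2 Prox1 UMIs. The 5 largest falls, in Calca, Hdc, Srgn, Tpsb2 and Tac1, all had 0 UMIs in QPC cKO. In the control they had 70, 65, 63, 60 and 56 UMIs, and 1 Ccl21a-high cell held 70, 65, 60, 59 and 56 of these, as well as 366 of the 368 UMIs of Cma1. Hdc, Tpsb2 and Cma1 are mast cell genes, so this comparison rests on a single cell.

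Expression by stage was described in the Ccl21a-high cells, which numbered 36 (E15.5), 3 (E16.5) and 11 (E17.5). Genotypes were pooled, with 17 control and 19 MOF cKO cells at E15.5 and 2 and 1 at E16.5. At E17.5 the pool held 5 control and 6 QPC cKO cells. Stage differences are given without a test, with intervals from counts alone. Prox1 stood at 517 CPM (464 to 575), 272 (124 to 516) and 485 (397 to 587) in the order of the stages, so E15.5 and E17.5 overlapped. Lyve1 stood at 1586 (1493 to 1684), 2327 (1836 to 2908) and 2080 (1892 to 2281), with E15.5 the lowest. Flt4 was at 269 (231 to 311), 483 (276 to 785) and 236 (176 to 310). In single libraries Lyve1 was at 1402 to 2254 CPM at E15.5 and at 1873 and 2287 at E17.5, with overlap.

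Ccl21a stood at 6179 CPM (5992 to 6369) at E15.5, 20002 (18508 to 21586) at E16.5 and 9054 (8658 to 9465) at E17.5. Single libraries ranged from 5636 to 7582 at E15.5, were 10154 and 32359 at E16.5 and 6108 and 12012 at E17.5, so the E17.5 control lay within the range of E15.5. Mmrn1 was at 1021 (946 to 1101), 1148 (813 to 1576) and 1285 (1138 to 1445). Nrp2 was at 795 (729 to 866), 725 (465 to 1079) and 462 (376 to 562), the lowest at E17.5, where both libraries (554 and 370 CPM) lay below the 4 of E15.5 (758 to 867).

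Several genes stood apart between E15.5 and E17.5 in every library. Fgl2 was at 495 CPM (443 to 551) and 1525 (1365 to 1699), with 404 to 776 in single libraries of E15.5 and 1301 and 1750 at E17.5, while in Prox1-undetected cells it was at 1.03 and 14.1 CPM. Stab1 was at 303 (263 to 348) and 624 (523 to 739). Cldn11 was at 5.95 (1.62 to 15.2) and 231 (172 to 305), and at 0 and 7.92 CPM in Prox1-undetected cells. The E17.5 libraries gave 111 CPM (control) and 352 CPM (QPC cKO), and in the latter 1 cell held 23 of the 38 UMIs. Cd9, a tetraspanin, was at 235 (200 to 275) and 989 (861 to 1131), with a rise from 241 to 444 CPM in Prox1-undetected cells too. Clca3a1 was at 83.3 (62.9 to 108) and 365 (289 to 455). Kit, sex of the embryo and stage cannot be told apart in these differences, and the pooled values mix control and cKO cells.

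Some genes stood apart in the 3 Ccl21a-high cells of E16.5. Foxc2 was at 302 CPM (145 to 556), against 29.7 (18.2 to 45.9) at E15.5 and 37 (16 to 72.9) at E17.5. Plvap was at 332 CPM (166 to 595), against 37.2 (24.1 to 54.9) and 157 (109 to 220), with 543 and 68.1 in the single libraries. Gja4 was at 1269 CPM (915 to 1715), against 69.9 (51.3 to 92.9) at E15.5 and 296 (228 to 378) at E17.5, and was high in both libraries that held such cells (1629 and 817). Fos, at 1335 CPM at E15.5 and 832 at E17.5, had 1 UMI in these cells, and Jun 3, whereas Prox1-undetected cells of E16.5 held 902 and 610 CPM of these genes.

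**Figure D5:**
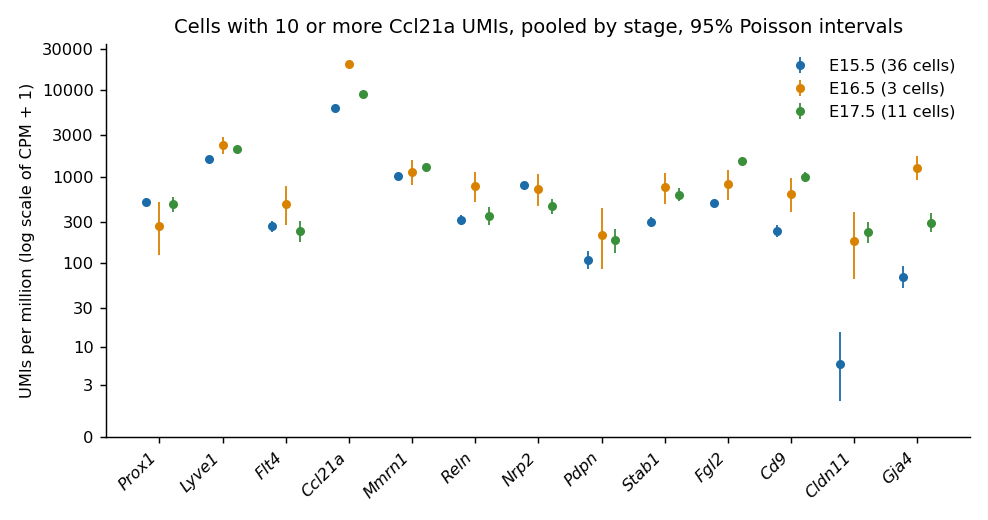
CPM (plus 1, log axis) of lymphatic genes in Ccl21a-high cells at E15.5, E16.5 and E17.5, with exact 95% Poisson intervals, from 36, 3 and 11 cells. Control and cKO cells are pooled at each stage. Fgl2 is higher at E17.5 than at E15.5, Nrp2 is lower, and the wide intervals at E16.5 reflect its 3 cells.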

How the data were processed

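Raw UMI counts per gene and cell were deposited by the authors for 10 libraries, made with Cell Ranger (versions 1.3.1 and 6.1.2 in the submitters' processing notes, build mm10). The files list 32285 genes at E15.5 and E17.5 and 27998 at E16.5. Library totals were 13609345 to 203392303 UMIs, which limits rare genes in few cells most at E16.5. Cells with over 1000 and under 6000 genes and under 10% mitochondrial UMIs were kept, and no doublet caller was run. The members, gene lists and tests were chosen with earlier results of these data known.

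For each library, UMIs were summed over members and over Prox1-undetected endothelial cells. Sums were tested with edgeR 4.0.16 in R 4.3.3 (quasi-likelihood test, TMM normalization, filterByExpr, Benjamini-Hochberg adjusted p under 0.05), with the library as a term where populations were compared. DESeq2 1.42.0 was an alternative. Errors beside log2 differences are standard errors. Shares were compared with two-sided exact permutation tests in scipy 1.17.1. E17.5 genes that reached 30 UMIs in a library were described with a pseudocount of 1 CPM and a 2-fold limit. Gene tests at E16.5, and tests that join stages, were not run, because its library sums held 1, 3, 1 and 2 cells. Scripts were tested on simulated data with 200 changed genes.

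Genes named were the 5 called genes of largest rise and of largest fall whose groups did not overlap and that reached a mean of 50 CPM and 10 UMIs in a group, the 5 of smallest p where none was called, the 5 largest rises and falls at E17.5, and the genes of the lists. Other genes named were chosen after their values were seen. Alternatives were each replicate left out, library size scaling, no filter on low counts, at least 2 Prox1 UMIs, at least 3 endothelial genes, under 5% mitochondrial UMIs, no cells with UMIs of other types, a comparison population with Prox1, Flt4 and Lyve1 at 0, thinning, another denominator and, chosen after seeing the data, at least 10 Ccl21a UMIs. The cell class of fibroblasts was read from collagen, and keratinocyte, macrophage and mural classes from their markers.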

Additional observations from a re-analysis of the deposited data

Results flagged for a closer look

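The MOF cKO effect at E15.5 differed between Prox1-detected and Prox1-undetected endothelial cells in the edgeR test of that difference for 5 genes, by log2 2.52 for Hist1h1b, 3.17 for Hbb-bt, 3.18 for Cma1, 2.58 for Hbb-bs and 2.79 for Hba-a1. Hbb-bt and Cma1 rest largely on Ccl21a-low cells, 1 of which held 705 of 738 Hbb-bt UMIs in MOF cKO replicate 6, and the cause was not tested.

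The share of members with at least 2 G2 and M phase UMIs moved by 19.6 percentage points at E15.5 and by -66.7 at E16.5 in MOF cKO, in opposite directions. The E16.5 value rests on 4 control and 3 MOF cKO cells, and the difference between stages was not tested. With at least 3 of the 5 endothelial genes required, the E16.5 value was -33.3, with 1 control library left.

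Outside the rule, 6 kept cells had at least 10 Ccl21a UMIs, of which the keratin limit left out 4 in the E17.5 control.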

How the results depend on the processing

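The share of kept cells at E15.5 differed by 0.0646 percentage points (MOF cKO minus control), which turned to -0.0823 without MOF cKO replicate 5, -0.0138 with thinned cells, -0.0147 among kept cells with little Krt5 and Krt14, and -0.00527 with at least 10 Ccl21a UMIs. Leaving out 1 library gave -0.0823 to 0.211 at E15.5 and 0.0206 to 0.0555 at E16.5, where leaving out cells with UMIs of other types gave -0.0149. The endothelial share ranged from -6.11 to -0.336 at E15.5 and from -2.83 to 3.28 at E16.5 (-1.94 and -2.83 when reversed), and was -4.56 at E16.5 without cells with UMIs of other types. At E15.5 it was -4.46 with thinned cells, -4.97 with at least 3 endothelial genes and -3.52 without cells with UMIs of other types. In these settings both MOF cKO libraries lay below both controls (exact permutation p = 0.333, the smallest possible). The other settings with all 4 libraries gave p of at least 0.667 in that test. The cycling difference ranged from 9.69 to 29.5 at E15.5 and from -100 to -33.3 at E16.5, and was 0 there with at least 2 Prox1 UMIs or at least 10 Ccl21a UMIs.

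Genes called for MOF cKO rose from 0 to 4 with DESeq2, 1 with library size scaling, 86 with no filter, 7 with at least 2 Prox1 UMIs, 3 without cells with UMIs of other types and 36 to 63 with 1 library left out. The population calls went from 278 to 101 with DESeq2, 454 with no filter, 780 with at least 2 Prox1 UMIs, 187 (171 shared) against cells with Prox1, Flt4 and Lyve1 at 0, and 168 to 322 with 1 library left out, of which 133 of the 168 without control replicate 2 were shared. The 5 calls for the difference of effects became 2 with DESeq2, 3 with library size scaling, 46 with no filter, 1 without cells with UMIs of other types, 4 (1 shared) against cells with Prox1, Flt4 and Lyve1 at 0, and 1 to 62 with 1 library left out, the 1 without control replicate 2 being another gene. With at least 2 Prox1 UMIs the MOF cKO differences were -0.51 for Hbb-bt, -0.14 for Hbb-bs and -0.53 for Hba-a1, and the differences of effects were -1.27, -1.0 and -1.05. Gene fits with 1 library left out keep 1 or 2 residual degrees of freedom, and a lone library of a group was assumed to vary like the others. The causes were not tested.

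With the replicate block at E16.5, where control and MOF cKO share replicate numbers, sign flips (smallest p 0.5) gave exact permutation p = 0.5 for the share of kept cells (0.038), p = 1 for the endothelial share (0.225) and p = 0.5 for cycling (-66.7). No paired analysis was possible because the E15.5 groups share no replicate number, and the planned gene tests at E16.5 and across stages, with their alternatives, were not run. Of the named values, 155 kept direction and side of the threshold, 29 passed it, 33 no longer passed it, 6 reversed and 2 moved. Depth limits E16.5, with 7 cells in all.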
